A study of Sus scrofa with 11 samples.

Results

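Receptors for the constant part of antibodies and the related receptors that signal through the adaptor DAP12 were followed across 11 pig skin wounds, gene by gene and wound by wound. The 10 genes were the rows of the deposited table that carry the symbols FCGR1A, FCGR2B, FCGR3A, FCER1G, TYROBP, SYK, TREM1, TREM2, PILRA and CD300LF, out of 30376 genes in all. Rows were taken by symbol and not by a measured value, and each symbol was found once. The 10 genes themselves were chosen with earlier results of these data known. The study sequenced polyadenylated RNA from full-thickness punch wounds of the dorsal skin of female Yucatan minipigs, taken 10 days after wounding, and each wound gave 1 library. The 7 diabetic wounds came from 1 minipig made diabetic with streptozotocin (STZ), a toxin of insulin-producing cells, at 6 months of age. That animal was wounded 60 days later, after supplemental insulin had been stopped. The 4 non-diabetic wounds came from 1 other minipig, which was not made diabetic and whose age is not given in the sources used here. All wounds of a group therefore share an animal, p-values measure the spread among wounds that share an animal, and diabetes cannot be told apart from any other difference between these animals.

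Myeloid cells read the antibodies and lipids around them with surface receptors that mostly have no signalling tail of their own. Such receptors sit beside a small adaptor, the Fc receptor gamma chain (FCER1G) or DAP12 (TYROBP), whose tail holds an immunoreceptor tyrosine-based activation motif (ITAM), and phosphorylated ITAM tyrosines bind the kinase SYK. Inhibitory receptors such as FCGR2B carry instead an inhibitory motif (ITIM) that recruits phosphatases, and the balance of activating and inhibitory Fc receptors is known to set how macrophages answer immune complexes. In skin wounds, these receptors are carried chiefly by macrophages, neutrophils and, for some, B cells and NK cells.

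Activating and inhibitory receptors are compared below, so stretches of coding sequence that match an ITAM or an ITIM are shown first. They were read from Sscrofa11.1 along the longest annotated coding sequence of each gene, each is written 5′ to 3′ on the coding strand, and capitals mark the tyrosine codons of the motif. The ITAM search asked for a tyrosine followed after any 2 residues by leucine or isoleucine, and the same again farther on. It matched once in FCER1G, at residues 65 to 79 of 86 (chr4:89242787-89242992, minus strand, across an intron), once in TYROBP, at residues 87 to 101 of 109 (chr6:45309385-45311506, minus strand, across an intron), and in none of the other 8 genes.
FCER1G ITAM: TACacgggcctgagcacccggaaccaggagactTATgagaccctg
TYROBP ITAM: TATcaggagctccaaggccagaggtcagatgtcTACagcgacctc
The ITIM search asked for isoleucine, leucine, valine or serine, then any residue, a tyrosine, any 2 residues, and leucine or valine, near the end of the protein. It matched once in FCGR2B, at residues 310 to 315 of 334 (chr4:88874315-88874332, minus strand), and at 2 places in CD300LF, at residues 211 to 216 (chr12:6514854-6514871, plus strand) and 258 to 263 (chr12:6515461-6515478, plus strand) of 302.
FCGR2B ITIM: atcaccTATtcacttctc
CD300LF first ITIM: ctctgcTACgcaaacctg
CD300LF second ITIM: atcgccTATgcagctctg
By the same rule the search also matched at 2 places in FCGR1A, at residues 243 to 248 and 294 to 299 of 346. It matched at 1 place in TYROBP, at residues 85 to 90 of 109, overlapping the ITAM. Those matches are not printed. No match was found in PILRA, a receptor known as inhibitory. A match describes letters and not a working motif.

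Depth was 28314785 to 40168372 reads on genes in diabetic and 32961018 to 36872400 in non-diabetic wounds, and a single read on 2 kb of gene was worth 0.0112 to 0.0194 FPKM, the deposited unit, which divides reads by gene length and library size. Diabetic 4 and non-diabetic 1 stood apart from the other wounds on the first principal component (44.5% of the variance) and had the lowest summed keratinocyte markers of their groups, 34.5 and 248 FPKM. Results were therefore also computed without both. Markers of keratinocytes, fibroblasts and endothelial cells were present in every wound, with KRT14 not found under its symbol. Genes with at least 0.5 FPKM in at least 4 libraries (13956, all 10 receptor and adaptor genes among them) were compared on log2(FPKM + 0.5) with limma, and a gene was called at an adjusted p under 0.05 with an absolute log2 fold change over 0.5. Fold changes on this scale are diabetic over non-diabetic and understate the change of genes with few reads.

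Of the 10 genes, FCGR2B and PILRA were called higher in diabetic wounds, none was called lower, and the other 8 were not called (limma). Over all genes tested, 3.00% were called in either direction and 1.35% were called higher. The median log2 fold change was 0.36 over the 10 genes and 0.01 over all genes tested, and 9 of the 10 were positive, FCGR1A being the exception. At an unadjusted p under 0.05 there were 6 of the 10 genes, against a background of 18.4%. The diabetic and non-diabetic wounds did not overlap in FCGR2B, PILRA and SYK, 3 of 10, against 5.65% of all genes tested. In whole wound tissue, more cells of a type and more RNA per cell cannot be told apart, and this holds for each value that follows.

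**Figure D1:**
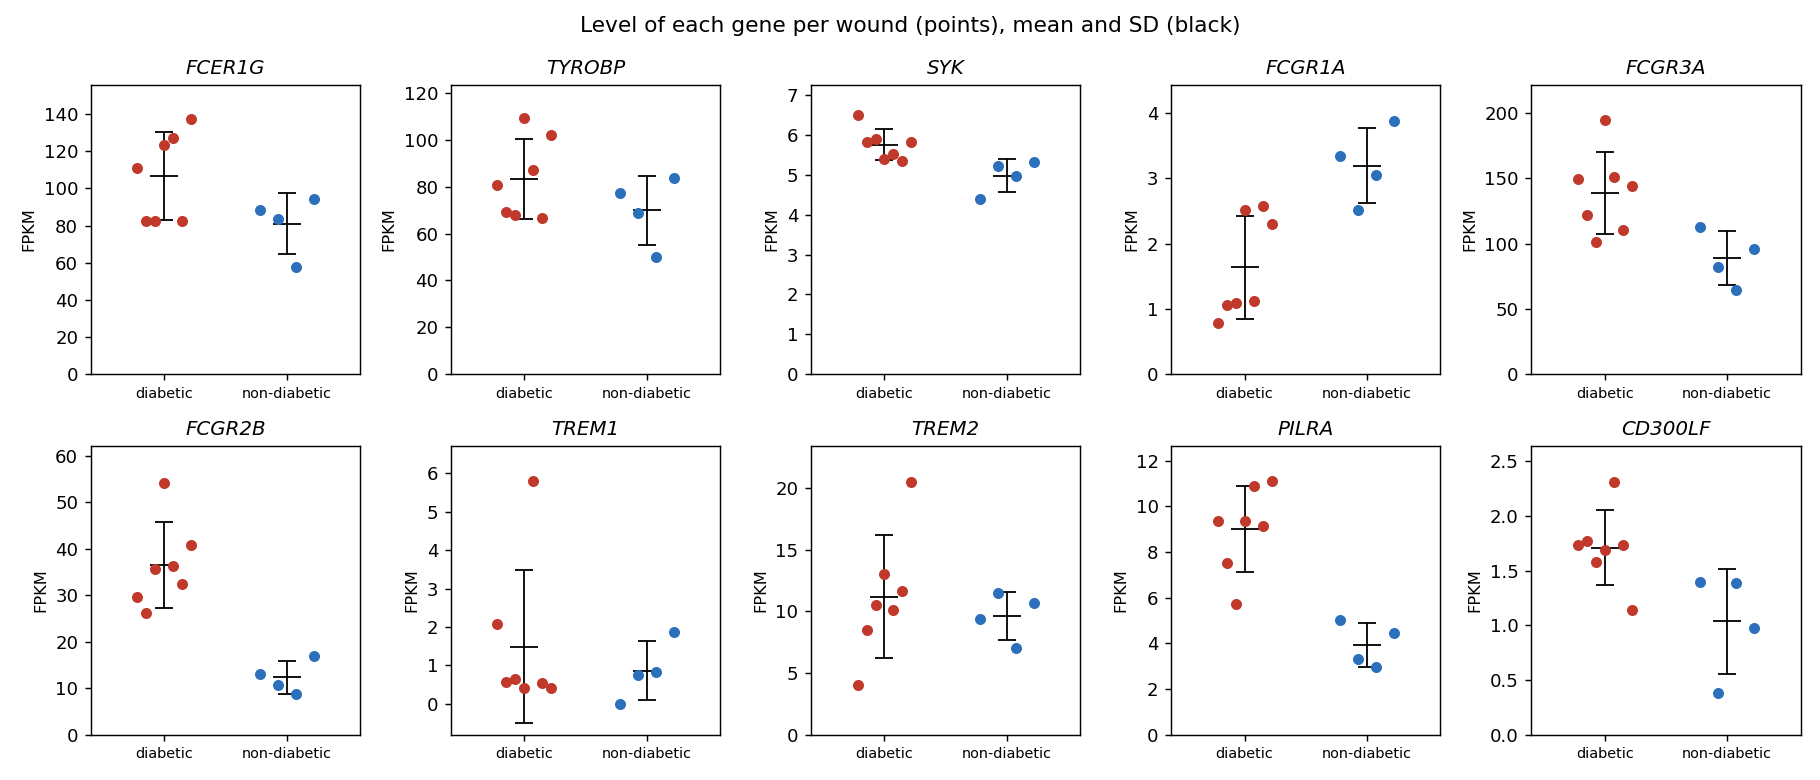
FPKM of the 10 genes in each of 7 diabetic (red) and 4 non-diabetic (blue) wounds, with 1 panel per gene and its own linear axis; points are wounds, the black bar is the mean and the whiskers are 1 SD. The groups do not overlap in FCGR2B, PILRA and SYK, FCGR1A is the gene with a lower diabetic mean, and 1 diabetic wound stands out in TREM1 at 5.79 FPKM.

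The adaptors were among the more abundant transcripts of the wounds, and neither was called. FCER1G, which pairs with the activating receptors FCGR1A and FCGR3A (chr4:89242467-89246344, minus strand), ranged from 82.5 to 138 FPKM with a median of 111 in diabetic wounds. In non-diabetic wounds it had 88.7, 83.5, 57.5 and 94.5 FPKM. The groups overlapped, since 3 diabetic wounds at 82.5 to 82.7 FPKM lay below 3 non-diabetic ones. The log2 fold change was 0.39 (95% interval -0.03 to 0.80, adjusted p = 0.305, limma), with means of 107 ± 23.9 (SD, n = 7) and 81.0 ± 16.3 FPKM (SD, n = 4). Without non-diabetic 3, the lowest wound, the log2 fold change was 0.23.

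TYROBP, the DAP12 adaptor of TREM1, TREM2 and other receptors (chr6:45309199-45312562, minus strand), ranged from 66.5 to 109 FPKM with a median of 80.8 in diabetic wounds, against 77.4, 68.9, 50.03 and 83.9 FPKM in non-diabetic wounds. The groups overlapped here too. The means were 83.4 ± 17.2 (SD, n = 7) and 70.0 ± 14.7 FPKM (SD, n = 4), with a log2 fold change of 0.25 (95% interval -0.13 to 0.64, adjusted p = 0.498, limma), and without non-diabetic 3 it was 0.099. FCER1G exceeded TYROBP in all 11 wounds, by a ratio of 1.13 to 1.46 in diabetic and 1.13 to 1.21 in non-diabetic wounds.

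SYK, the kinase that docks on both adaptors (chr14:2103706-2160886, plus strand), was the least variable of the 10. It ranged from 5.34 to 6.49 FPKM with a median of 5.81 in diabetic wounds and had 4.40, 5.22, 4.98 and 5.33 FPKM in non-diabetic wounds. Every diabetic wound lay above every non-diabetic one, though the lowest diabetic and the highest non-diabetic value were nearly equal (two-sided exact permutation test, p = 0.0061). The difference was small, 5.75 ± 0.392 (SD, n = 7) against 4.98 ± 0.416 FPKM (SD, n = 4), with a log2 fold change of 0.19 (95% interval 0.01 to 0.37), and it was not called (adjusted p = 0.247, limma).

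Of the 3 Fc gamma receptors, FCGR2B was called higher, and FCGR3A and FCGR1A were not called. FCGR2B, the inhibitory receptor for IgG complexes that macrophages and B cells carry, lies on chr4:88873762-88892964 (minus strand). It ranged from 26.1 to 54.2 FPKM with a median of 35.6 in diabetic wounds and had 13.0, 10.8, 8.77 and 17.0 FPKM in non-diabetic wounds. The lowest diabetic wound thus lay above the highest non-diabetic one, with 1487 to 3010 reads behind the diabetic and 534 to 1158 behind the non-diabetic values. The mean was 36.4 ± 9.20 (SD, n = 7) against 12.4 ± 3.53 FPKM (SD, n = 4), a ratio of 2.94, and a log2 fold change of 1.53 (SE 0.21, 95% interval 1.08 to 1.97, adjusted p = 0.00229, limma). The two-sided exact permutation test gave p = 0.00303, the smallest that the 330 splits of the wounds allow. Without diabetic 4, the highest wound, and non-diabetic 1, the log2 fold change was 1.46 (adjusted p = 0.00796, limma).

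FCGR3A (CD16), the activating receptor of macrophages, neutrophils and NK cells that needs the gamma chain, lies on the same stretch of the chromosome (chr4:88948357-88956513, plus strand). It was the most abundant of the 10 genes, in the 97.3 percentile of mean FPKM over the genes tested. Diabetic wounds ranged from 102 to 195 FPKM with a median of 144, and the non-diabetic wounds had 113, 82.0, 64.1 and 95.8 FPKM. Non-diabetic 1 overlapped the lower diabetic wounds. The means were 139 ± 31.4 (SD, n = 7) and 88.7 ± 20.8 FPKM (SD, n = 4), the log2 fold change was 0.65 (95% interval 0.23 to 1.06), and the gene was not called (adjusted p = 0.0924, limma). With library weights (0.62, adjusted p = 0.0490) and with the keratinocyte markers as a covariate (0.68, adjusted p = 0.0177), it was called (limma). The study itself tested raw counts with DESeq2, another test than the one used here. It names FCGR3A among the genes of a natural killer cell pathway enriched in diabetic wounds.

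FCGR1A (CD64), the high-affinity IgG receptor of monocytes and macrophages and a textbook target of interferon gamma, had a lower mean in diabetic wounds. The gene lies at chr4:99233632-99242531 (minus strand) and had few reads, 35 to 100 per diabetic and 100 to 189 per non-diabetic wound. It ranged from 0.782 to 2.58 FPKM with a median of 1.12 in diabetic wounds and had 3.35, 2.51, 3.05 and 3.87 FPKM in non-diabetic wounds. The groups overlapped only narrowly, since diabetic 4 and diabetic 6 (2.515 and 2.582 FPKM) exceeded the lowest non-diabetic wound (2.509 FPKM), and within the diabetic group 4 wounds at 0.782 to 1.12 FPKM lay apart from 3 at 2.29 to 2.58 FPKM. The means were 1.63 ± 0.787 (SD, n = 7) and 3.19 ± 0.569 FPKM (SD, n = 4), a ratio of 0.512. The log2 fold change was -0.86 (95% interval -1.44 to -0.29) and the gene was not called (adjusted p = 0.101, limma), with an exact permutation p of 0.0121. It was called with the first letter of the library names, L or R, whose meaning the labels do not give, as a covariate (-0.90, adjusted p = 0.0445), with library weights (-0.83, adjusted p = 0.0469) and with the macrophage markers as a covariate (-1.42, adjusted p = 0.0412), all by limma.

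**Figure D2:**
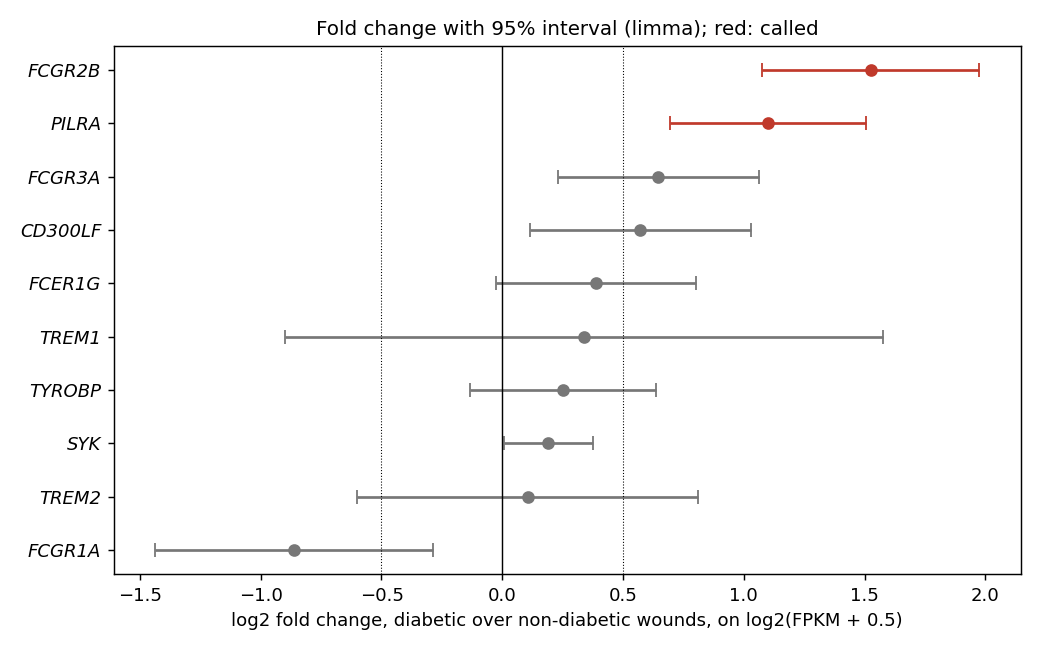
Log2 fold change of each of the 10 genes, diabetic over non-diabetic wounds, on log2(FPKM + 0.5), with its 95% interval from limma; red marks genes called at an adjusted p under 0.05 and past the dotted lines at a log2 fold change of 0.5 in either direction. FCGR2B (1.53) and PILRA (1.10) are called, and the intervals of TYROBP, FCER1G, TREM1 and TREM2 cross 0.

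Pairs of genes were also set against each other within each wound, as 6 log2 ratios of FPKM + 0.5 with two-sided exact permutation tests adjusted over the 6. In diabetic wounds FCGR1A was 0.0264 to 0.0798 times the level of FCGR2B, and in non-diabetic wounds it was 0.228 to 0.348 times. The groups were separate, and the log2 ratio was lower by 2.39 in diabetic wounds (exact p = 0.00303, adjusted p = 0.00606). The ratio of FCGR3A to FCGR2B was 2.85 to 5.05 in diabetic and 5.64 to 8.70 in non-diabetic wounds. These groups were separate as well, and the log2 ratio decreased by 0.88 (exact p = 0.00303, adjusted p = 0.00606). Both activating receptor transcripts were lower relative to FCGR2B in every diabetic wound than in any non-diabetic wound. FCGR2B, the denominator of both, is the gene called.

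**Figure D3:**
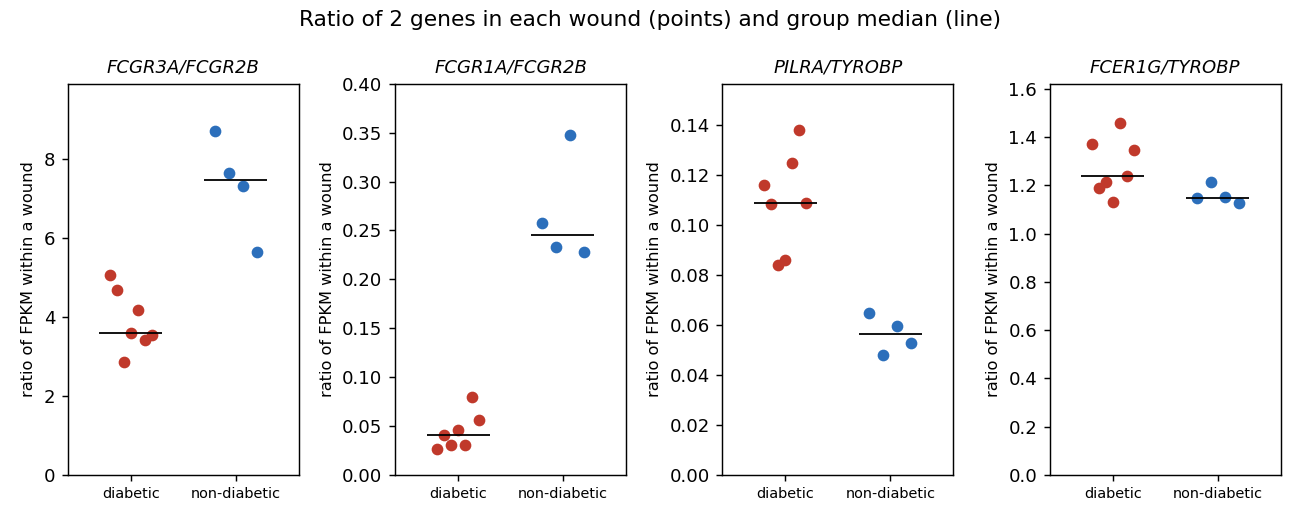
Ratio of FPKM of 2 genes within each wound, for 7 diabetic (red) and 4 non-diabetic (blue) wounds on linear axes from 0; points are wounds and lines are group medians. FCGR3A/FCGR2B (2.85 to 5.05 against 5.64 to 8.70), FCGR1A/FCGR2B and PILRA/TYROBP are separate between the groups, and FCER1G/TYROBP overlaps.

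The 3 linked genes FCGR2B, FCGR3A and FCER1G lie within 372583 bases of chromosome 4, and FCGR1A lies apart on the same chromosome. A further gene that the annotation describes as an Fc gamma receptor II, LOC110260307 (chr4:88973813-88989781), was chosen after its values were seen, because its reads could be confused with those of FCGR2B. It had 2.56 ± 0.479 (SD, n = 7) and 2.56 ± 0.346 FPKM (SD, n = 4), and its log2 fold change was -0.01 (adjusted p = 0.979, limma). How the counting treated reads that match both genes is not given in the sources used here.

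As FCGR1A and FCGR2B differed most in direction, the windows from 250 bases before to 50 bases after their annotated starts in Sscrofa11.1 are printed, with matches in capitals to GAGGAA, the core bound by the myeloid factor PU.1 in textbook sites, and to TTCNNNGAA, the form bound by STAT factors, searched on both strands. The FCGR1A window is chr4:99242482-99242781 and the FCGR2B window chr4:88892915-88893214, both on the minus strand.
FCGR1A: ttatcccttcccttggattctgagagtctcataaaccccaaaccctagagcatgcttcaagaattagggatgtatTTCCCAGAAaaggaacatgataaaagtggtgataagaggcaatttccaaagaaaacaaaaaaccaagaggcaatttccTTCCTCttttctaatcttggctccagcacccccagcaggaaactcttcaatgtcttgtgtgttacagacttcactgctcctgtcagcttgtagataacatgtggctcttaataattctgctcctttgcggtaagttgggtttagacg
FCGR2B: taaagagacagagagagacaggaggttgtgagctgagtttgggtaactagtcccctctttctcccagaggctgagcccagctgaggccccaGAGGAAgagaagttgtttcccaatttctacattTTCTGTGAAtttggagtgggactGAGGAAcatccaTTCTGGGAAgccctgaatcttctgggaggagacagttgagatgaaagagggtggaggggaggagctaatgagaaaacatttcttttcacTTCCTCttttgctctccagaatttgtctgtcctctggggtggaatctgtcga
The FCGR1A window holds 1 match to each motif. The FCGR2B window holds 3 matches to GAGGAA and 2 to TTCNNNGAA. GAGGAA occurred in 8 of the 10 windows, all but those of SYK and PILRA, against 26.1% of 20663 windows of the same length over annotated genes, and TTCNNNGAA occurred in the windows of these 2 genes alone, against 7.36%. A match is a run of letters and not a bound site, and the annotated start may not be the start used in wounds.

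TREM2 and TREM1, which couple to DAP12, were not called, and their intervals held changes of either sign. TREM2, a lipid-sensing receptor of macrophages (chr7:36465921-36471509, minus strand), ranged from 4.05 to 20.5 FPKM with a median of 10.5 in diabetic wounds and had 9.36, 11.5, 7.02 and 10.7 FPKM in non-diabetic wounds. The diabetic wounds spanned both sides of the non-diabetic ones, with diabetic 1 the lowest and diabetic 7 the highest of all. The means were 11.2 ± 5.00 (SD, n = 7) and 9.64 ± 1.95 FPKM (SD, n = 4), and the log2 fold change was 0.11 (95% interval -0.60 to 0.81, adjusted p = 0.903, limma). Without diabetic 7 the estimate was -0.06 and without non-diabetic 3 it was -0.03.

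TREM1, an amplifier of inflammation on neutrophils and monocytes, lies beside TREM2 (chr7:36510253-36531796, minus strand, both within 65876 bases) and was the least abundant of the 10. It ranged from 0.410 to 5.79 FPKM with a median of 0.559 in diabetic wounds, on 11 to 197 reads, and the non-diabetic wounds had 0, 0.755, 0.828 and 1.87 FPKM on 0 to 76 reads. The 0 in non-diabetic 1 allows up to 3 reads, or 0.101 FPKM. Diabetic 5 (5.79 FPKM) and diabetic 1 (2.07 FPKM) were high, and the other 5 diabetic wounds lay below the 3 non-diabetic ones that had reads. The log2 fold change was 0.34 with a wide interval (-0.90 to 1.58, adjusted p = 0.808, limma), and without diabetic 5 it was -0.01. Markers of neutrophils, which also carry TREM1, spanned 45.0 to 10790 FPKM in diabetic and 301 to 12590 FPKM in non-diabetic wounds when summed, with none called. Nearly all of the sum came from S100A8, S100A9 and S100A12, with diabetic means of 1754, 1905 and 2677 FPKM. The next marker, CSF3R, had 5.70 FPKM, and these 4 were named after their values were seen. Diabetic 4 and non-diabetic 1, lowest in keratinocyte markers, had the lowest sums of their groups. The part of neutrophils in the result was not tested. The ratio of TREM1 to TREM2 did not pass its test (log2 difference 0.23, exact p = 0.788, adjusted p = 0.788).

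Of the paired inhibitory receptors, PILRA was called and CD300LF was not. PILRA, which binds sialylated proteins on neighbouring cells and is carried by myeloid cells (chr3:8305774-8322733, plus strand), ranged from 5.71 to 11.103 FPKM with a median of 9.37 in diabetic wounds and had 5.02, 3.30, 2.98 and 4.44 FPKM in non-diabetic wounds. The groups did not overlap, though the lowest diabetic wound, diabetic 3, lay close to non-diabetic 1. The mean rose 2.29-fold (log2 fold change 1.10, SE 0.18, 95% interval 0.70 to 1.50, adjusted p = 0.00862, limma), and without diabetic 4 and non-diabetic 1 the log2 fold change was 1.20 (adjusted p = 0.0194, limma). Within wounds, PILRA was 0.0840 to 0.138 times the level of TYROBP in diabetic and 0.0480 to 0.0649 times in non-diabetic wounds. This log2 ratio was higher by 0.85 (exact permutation p = 0.00303, adjusted p = 0.00606), with separate groups. LOC100514951, described in the annotation as the activating partner PILRB and chosen after its values were seen, had 11.2 ± 2.77 (SD, n = 7) and 9.04 ± 2.02 FPKM (SD, n = 4) and was not called (log2 fold change 0.29, adjusted p = 0.496, limma).

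CD300LF, a lipid-binding receptor with the inhibitory motifs printed above (chr12:6501151-6521135, plus strand), ranged from 1.14 to 2.30 FPKM with a median of 1.73 in diabetic wounds and had 1.39, 0.382, 1.39 and 0.976 FPKM in non-diabetic wounds. All but 1 of 7 diabetic wounds lay above all non-diabetic ones and diabetic 7 lay among them. The means were 1.71 ± 0.343 (SD, n = 7) and 1.04 ± 0.477 FPKM (SD, n = 4), and the log2 fold change was 0.57 (95% interval 0.11 to 1.03, adjusted p = 0.167, limma). Without non-diabetic 2, the lowest wound, the log2 fold change was 0.33. Against TYROBP the log2 ratio differed by 0.32 and did not pass its test (exact p = 0.330, adjusted p = 0.396), and the difference was 0.075 without non-diabetic 2 and 0.59 without non-diabetic 3.

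By level over all wounds the order was FCGR3A, FCER1G, TYROBP, FCGR2B, TREM2, PILRA, SYK, FCGR1A, CD300LF and TREM1, on FPKM. FCER1G stood above TYROBP, TYROBP above FCGR2B and SYK above FCGR1A in all 11 wounds. Other neighbours were not ordered alike in each group: PILRA exceeded SYK in 6 of 7 diabetic wounds and 1 of 4 non-diabetic wounds, and FCGR1A exceeded CD300LF in 3 of 7 diabetic wounds and 4 of 4 non-diabetic wounds. TREM2 exceeded PILRA in 5 of 7 diabetic and 4 of 4 non-diabetic wounds.

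The more abundant genes varied alike from wound to wound within a group. With each group centred on its mean, FCER1G and TYROBP had a correlation of 0.94 over the 11 wounds, FCGR3A and TYROBP one of 0.89, and FCGR2B and TYROBP one of 0.85, as a description with no test. Diabetic 4, which stood apart and had the highest summed macrophage markers (429 FPKM), was the highest diabetic wound in FCGR2B, FCGR3A and TYROBP. Without it and non-diabetic 1 the same correlations were 0.97, 0.89 and 0.79 over 9 wounds. Of the 45 pairs, 12 were above 0.5 and 16 below 0. The wounds share animal, tissue and library scaling within a group. Among the non-diabetic wounds, non-diabetic 3 was the lowest in 6 of the 10 genes and non-diabetic 4 the highest in 6. The genes most like TYROBP by this measure were FCER1G (0.94), CPPED1 (0.93), CTSS (0.92), APOBR (0.92) and BRD7 (0.92), and those most like FCER1G were TYROBP (0.94), LOC100624191 (0.94), C2H5orf15 (0.91), BRD7 (0.90) and CPPED1 (0.89).

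**Figure D4:**
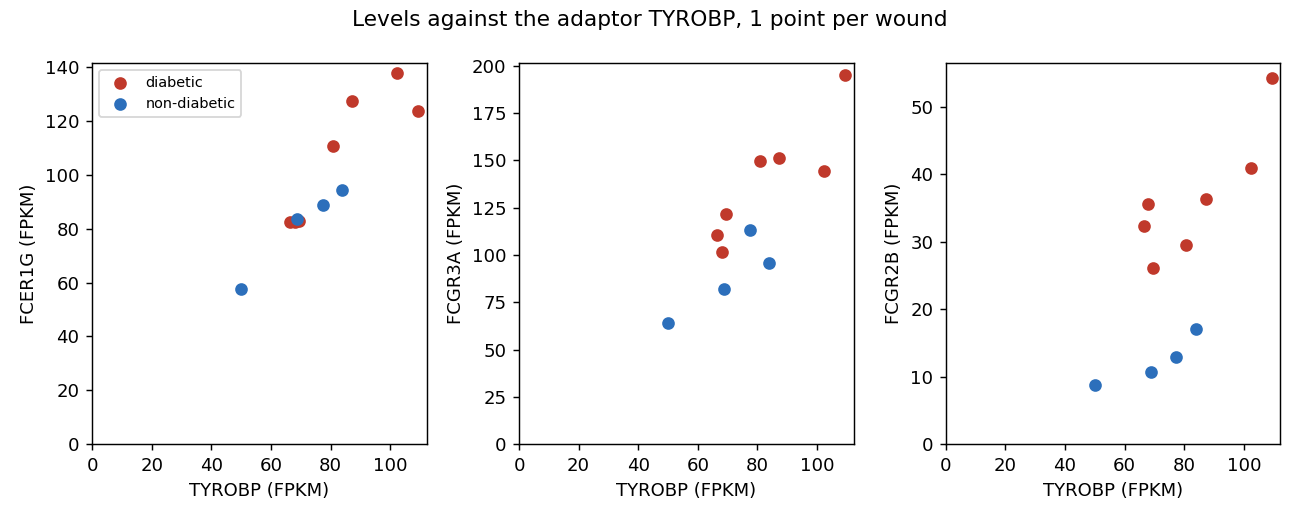
FPKM of FCER1G, FCGR3A and FCGR2B against FPKM of the adaptor TYROBP in each of 7 diabetic (red) and 4 non-diabetic (blue) wounds, linear axes from 0. FCER1G follows TYROBP in both groups, and FCGR2B lies higher in the diabetic wounds (26.1 to 54.2 FPKM) than in the non-diabetic ones (8.77 to 17.0 FPKM) at like levels of TYROBP.

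Markers of macrophages moved in the same direction as most of these genes. The 8 macrophage markers summed to 269 to 429 FPKM (median 306) in diabetic and 163 to 287 FPKM (median 247) in non-diabetic wounds. All 8 were tested, 7 had a positive log2 fold change, and CD14, an endotoxin co-receptor, MRC1, the mannose receptor, and ITGAM, an integrin chain, were called, with log2 fold changes of 0.76, 0.73 and 1.22 (adjusted p = 0.0390, 0.00585 and 0.00585, limma). CD68, CD163, CSF1R and AIF1 had values of 0.42, 0.58, 0.28 and 0.27, the scavenger receptor MSR1 had -0.29, and none of these was called. By immunostaining, the study reports a decrease of macrophages positive for CD206, the protein of MRC1, in diabetic wounds. Stained cells are another measure than the RNA of whole tissue. With the mean log2 level of the macrophage markers as a covariate, the log2 fold change of FCGR2B was 0.88 (adjusted p = 0.0142), that of PILRA 0.75 (adjusted p = 0.0862) and that of FCGR3A 0.17 (adjusted p = 0.622, limma). FCER1G, TYROBP and TREM2 then had -0.09, -0.27 and -0.63 and were not called. FCGR2B was thus called with and without this term, and PILRA was not called with it. The term ran from 4.48 to 5.18 in diabetic and from 3.93 to 4.51 in non-diabetic wounds. As the groups overlap only narrowly in it, this fit tells the term and the group apart poorly.

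B cells also carry FCGR2B. Their 4 markers summed to 3.07 to 8.56 FPKM in diabetic and 1.03 to 1.46 FPKM in non-diabetic wounds, with no overlap. CD79A and CD79B, the signalling chains of the B cell receptor and the 2 markers tested, were both called higher (log2 fold changes 1.74 and 1.19, adjusted p = 0.00103 and 0.0256, limma), while MS4A1 and PAX5 lay under the filter and were at 0 in some wounds. LOC396781, an immunoglobulin G heavy chain gene and so a ligand of these receptors, had 130 ± 59.9 (SD, n = 7) and 11.04 ± 4.29 FPKM (SD, n = 4), and it was named after its values were seen. In FPKM, FCGR2B stood above CD79A in every wound, with diabetic means of 36.4 and 4.34 FPKM. Levels of 2 different genes do not tell how much of the FCGR2B RNA came from B cells. Since the B cell markers separate the groups, a fit with them as a covariate holds little information on the group. In it, FCGR2B had a log2 fold change of 1.74 (adjusted p = 0.920) and PILRA one of 1.61 (adjusted p = 0.765, limma). The B cell markers and the group cannot be told apart here, and the part of B cells in the difference of FCGR2B was not tested.

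NK cells, which also carry FCGR3A, had markers summing to 15.7 to 29.1 FPKM in diabetic and 15.4 to 19.2 FPKM in non-diabetic wounds, with none of 4 tested called and KLRD1 at 0 in some wounds. Mast cells, which use FCER1G for the IgE receptor, had sums of 3.06 to 6.50 and 2.84 to 5.58 FPKM, and their defining protease CPA3 was at 0 in all wounds. Dendritic cell sums were 2.67 to 7.50 and 1.49 to 6.29 FPKM and T cell sums 12.7 to 35.0 and 11.2 to 17.6 FPKM, with none called. The part of these cells in the results was not tested.

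The other genes of the pathway were taken from lists. Beside the counts called in them stand 3.00% of all genes tested called in either direction and 1.35% called higher. Of 21 other Fc receptors, 14 were found by symbol and 5 were tested; FCRLA, an intracellular Fc receptor-like protein of B cells, was called higher with 2.67 ± 0.585 (SD, n = 7) and 0.813 ± 0.277 FPKM (SD, n = 4; log2 fold change 1.28, adjusted p = 0.00319, limma), and the median was 0.41. FCGRT, the neonatal receptor that recycles IgG, was the most abundant at 141 and 106 FPKM and was not called (0.40, adjusted p = 0.189, limma), nor was TRIM21, a cytosolic antibody receptor (-0.13). Of 31 other ITAM-coupled receptors and adaptors, 13 were tested and none was called in either direction, with a median of 0.25. CD300C (0.37) and SIRPB2 (0.25) were the most abundant of them.

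Downstream, the kinases and signalling proteins of the ITAM pathway hardly moved as a list. Of 46 genes 43 were tested, 1 was called higher, none lower, and the median log2 fold change was 0.02, near the 0.01 of all genes tested. The gene called was PIK3R5, a regulatory subunit of PI3-kinase gamma, with 4.25 ± 0.582 (SD, n = 7) and 2.86 ± 0.444 FPKM (SD, n = 4; log2 fold change 0.50, adjusted p = 0.0460, limma), just past both thresholds. The most abundant, the GTPases RAC1 (0.30, adjusted p = 0.108) and CDC42 (-0.11, adjusted p = 0.424), were not called (limma).

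Among 37 other inhibitory receptors and phosphatases, 26 were tested, 2 were called higher and none lower, with a median of 0.06. CD300A, an inhibitory relative of CD300LF that binds phospholipids of dying cells, had 7.74 ± 1.86 (SD, n = 7) and 4.35 ± 0.807 FPKM (SD, n = 4; log2 fold change 0.75, adjusted p = 0.0351, limma). SLA, an adaptor that dampens antigen receptor signalling, had 1.67 ± 0.326 and 0.836 ± 0.308 FPKM (0.72, adjusted p = 0.0344, limma). The most abundant, PECAM1 (0.02) and the lipid phosphatase INPPL1 (-0.21), were not called. In both CD300A and SLA, picked as called on these same values, the groups did not overlap, against 5.65% of all genes tested. They also did not overlap in CLEC12A, another gene of this list, named after its values were seen. CLEC12A was lower in diabetic wounds, with 0.406 ± 0.160 (SD, n = 7) against 0.760 ± 0.131 FPKM (SD, n = 4). It was not called (log2 fold change -0.49, adjusted p = 0.109, limma).

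Of 19 ligands and shedding enzymes, 14 were tested, none was called higher and LPL, a lipase that TREM2 can bind, was called lower, with 19.3 ± 3.52 (SD, n = 7) and 46.7 ± 11.98 FPKM (SD, n = 4; log2 fold change -1.24, adjusted p = 0.00229, limma). The abundant lipid carriers APOE (605 and 422 FPKM, 0.49, adjusted p = 0.343) and CLU (564 and 500 FPKM, 0.14, adjusted p = 0.8294), both TREM2 ligands, were not called (limma).

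The 31 tested genes of the lipid-handling programme that TREM2 macrophages are known for, of 32 listed, had 2 genes called higher, 2 called lower, 22 with a positive log2 fold change and a median of 0.21. PLIN2, the coat protein of lipid droplets, had 48.2 ± 6.46 (SD, n = 7) against 16.0 ± 3.95 FPKM (SD, n = 4; log2 fold change 1.58, adjusted p = 0.000306, limma), and the fatty acid receptor CD36 had 15.4 ± 3.40 against 7.21 ± 0.865 FPKM (1.02, adjusted p = 0.00523, limma). SPP1, osteopontin, was lower with 33.2 ± 14.2 against 123 ± 49.8 FPKM (-1.90, adjusted p = 0.0160, limma), as was LPL, which both lists hold. LGALS1 (-0.22) and CST3 (-0.04), the most abundant, were not called. These 4 genes, which other cells of the wound also express, did not overlap between the groups, but they were picked as called on these same values. The other 27 genes tested in the list were not called and had overlapping groups, as TREM2 itself did.

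**Figure D5:**
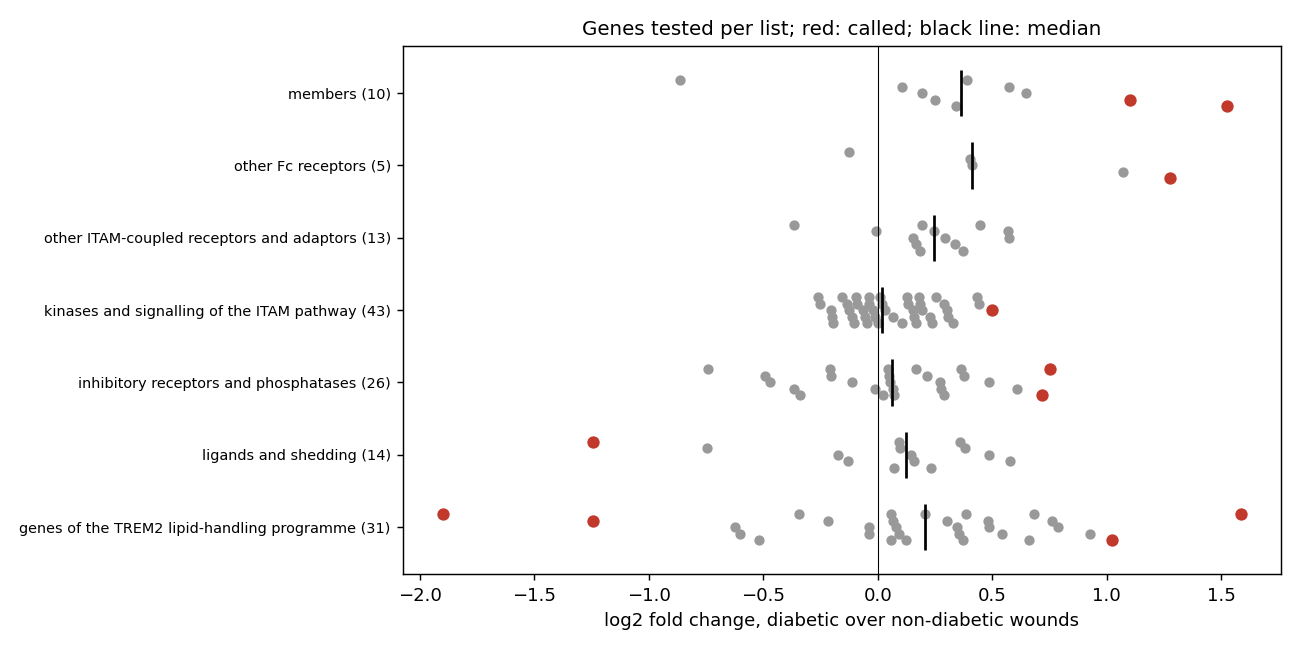
Log2 fold change (diabetic over non-diabetic) of each gene tested, for the 10 genes (members) and 6 lists of related genes, with the number tested in brackets; red points are called and the black line is the median of the list. The members have a median of 0.36, the kinases and signalling genes one of 0.02, and the called genes of the lipid-handling programme lie on both sides of 0.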

How the data were processed

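Per the labels and the study's methods, the authors prepared directional libraries, cleaned the reads with fastp, aligned to Sscrofa11.1 by HISAT2 2.2.1, assembled with StringTie 2.2.3 and counted on genes with featureCounts 2.0.6. The values used were the FPKM that the authors deposited for 30376 genes and 11 wounds, and the formula is not given in the sources used here. Multiplied by gene length, 100.0% of values were whole reads within 0.05 reads, and these reads gave the depth. They entered voom as an alternative only, since the deposited unit is FPKM. Depth limits precision most for TREM1, FCGR1A and CD300LF.

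Log2(FPKM + 0.5) was fitted with limma 3.58.1 (R 4.3.3, eBayes with trend, Benjamini-Hochberg adjustment over 13956 genes with at least 0.5 FPKM in at least 4 libraries). Exact permutation tests used SciPy 1.17.1 over 330 splits. The fit was tested on simulated data. Promoter windows, motifs and coordinates came from the NCBI annotation of Sscrofa11.1, whose gene coordinates matched the deposited ones. The 10 genes, the lists and the tests were chosen with earlier results of these data known. The genes named were the 10 genes, every called gene and the 2 most abundant genes of each list, the macrophage markers and the 5 genes most like each adaptor, and genes named outside this rule are marked as such, apart from marker genes named only as missing or at 0. Alternatives changed the pseudocount, filter, scaling, spread estimate, weights, block, covariates and wounds included. A further B cell marker of the original list was left out and is not reported here.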

Additional observations from a re-analysis of the deposited data

Results flagged for a closer look

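TREM1 in diabetic 5 was 5.79 FPKM, on 197 reads, and stood apart from the other 6 diabetic wounds, with a gap to the nearest of them, diabetic 1, of 0.692 of the group's whole range, above Dixon's 95% critical value for 7 samples. Of 20 groups examined (10 genes in 2 groups) this was the 1 that passed, and chance gives about 1 in 20. Diabetic 5 was also the highest wound in CD300LF.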

How the results depend on the processing

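The 10 genes, 6 ratios and 3 counts were recomputed under 27 alternatives for the genes (26 for TREM1) and 13 for the ratios. FCGR2B was called under 25 of 27 and PILRA under 24 of 27, with log2 fold changes of 0.88 to 1.74 and 0.75 to 1.61. With the replicate block, both were not called (1.50, adjusted p = 0.119, and 0.94, adjusted p = 0.136, limma), 0 of the 10 genes, 0 of the listed genes and 16 of all genes were called. The numbers mark no shared animal, and same-numbered wounds had correlations of -0.27, 0.22, 0.07 and -0.48 of their deviations, so the numbers do not pair the wounds. With the B cell covariate, chosen after seeing the data, 0 of the 10, 0 of the listed genes and 3 of all genes were called, and this covariate itself separates the groups. With library weights 4 of the 10 (FCGR3A and FCGR1A added), 17 listed and 822 of all genes were called. Without both wounds that stand apart, 2 of the 10, 5 listed and 212 of all genes were called, and without a filter 5 listed genes. The letter covariate gave 3 of the 10. The macrophage covariate, in which the groups overlap only narrowly, gave 2, FCGR2B and FCGR1A. Leaving out each wound gave 2 of the 10 each time, 4 to 11 listed and 209 to 482 of all genes.

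Directions turned for FCER1G and TYROBP with the macrophage covariate (-0.0904 and -0.27), for TREM2 with that covariate (-0.63), the replicate block (-0.18), the B cell covariate (-0.51) and on leaving out wounds (-0.055 to 0.31; negative without diabetic 7 or non-diabetic 3), and for TREM1 with the B cell covariate (-0.18) and on leaving out wounds (-0.076 to 0.67; negative without diabetic 5 or non-diabetic 1). None of these was called in either direction, and the cause was not tested. Over wounds left out, the difference of the TREM1/TREM2 log2 ratio ran from -0.18 to 0.52. That of FCER1G/TYROBP ran from 0.11 to 0.17 and passed without diabetic 4 (exact permutation test, adjusted p = 0.0429). That of CD300LF/TYROBP ran from 0.075 to 0.59. The remaining 3 ratios had separate groups, which stay separate whichever wound is left out, so their p-values then say nothing about stability. Few reads limit TREM1 (0 to 197 per wound), whose estimate ran from -0.18 to 1.26.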

Other observations

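Transcripts described as relatives of these receptors, named after their values were seen, had the following levels. LOC100514068, described as CMRF35-like and located on chromosome 12 near CD300LF, had 13.6 ± 3.94 (SD, n = 7) and 14.1 ± 2.85 FPKM (SD, n = 4; log2 fold change -0.08, adjusted p = 0.885, limma). LOC102159509, on the same chromosome, had 0.750 ± 0.195 and 0.313 ± 0.195 FPKM (0.64, adjusted p = 0.0618, limma). Neither was called.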
